A study of Arabidopsis thaliana with 45 samples.

Results

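The genes described here act in DNA repair or in the removal of DNA methylation in *Arabidopsis thaliana*: BRCA2B, RECQL4B, SMC5, PARP1, PRP19B, PMS1, RAD23C and ROS1. Their CpG windows were taken from the deposited lists of differentially methylated regions (DMRs) wherever the gene column held the gene's name or locus. All 8 genes had at least 1 window, beside 5.94% of the 27444 annotated protein-coding genes, and were picked with this known. Counted once per comparison there were 18 of 3273 CpG windows, which lay at 9 of 2331 positions. Each window was 200 bp long.

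The series compared rosettes of wild-type Columbia plants of 3 generations in 9 groups of 5 samples (45 samples), whose genomes were read by bisulfite sequencing. Plants were exposed for 14 days to gamma radiation from a caesium source at 30 mGy/h (γ30) or 110 mGy/h (γ110), or kept at natural background radiation (γ0). P0 plants came from a seed stock that had never been irradiated, S1 plants from seeds of treated P0 plants and S2 plants from seeds of treated S1 plants. S2γ30 plants were therefore irradiated themselves, as their parents and grandparents had been. S1γ30 plants had irradiated parents, and P0γ30 plants were the first to be irradiated. S2γ0 plants were the unexposed S2 controls, whose parents and grandparents had also been kept at background radiation. Plants were 7 days old at the start by the series design and 14 days old by the sample labels. The lists held 1 methylation level per group and window, as a fraction of 0 to 1. A window was listed only where 2 groups differed by at least 20 percentage points and passed a p-value limit. The levels are the authors' own. No level per sample, no error and no read depth stood in them, so differences are described without a test, and a low level in all 5 samples of a group cannot be told apart from a high level in a few of them.

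In plants, CG methylation is copied at each DNA replication by MET1 with the VIM proteins, is common inside the bodies of expressed genes and can pass through meiosis to the offspring. It is removed by DNA glycosylases of the ROS1 and DEMETER family, which cut out the methylated base and leave a gap that repair enzymes fill. Gamma radiation breaks DNA strands, and the breaks are sensed by PARP enzymes and by the kinase ATM and are mended by homologous recombination or by end joining.

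By the RefSeq annotation of TAIR10.1, 7 of the 9 window positions lay wholly inside the gene they were named for. BRCA2B (AT5G01630, minus strand, chr5:234851-241106) held its window at chr5:238601-238800, across exons 5 and 6 and the intron between them. In PRP19B (AT2G33340, minus strand, called MAC3B in RefSeq) the window at chr2:14127601-14127800 covered 187 bp of intron 12 and 13 bp of exon 13. In RECQL4B (AT1G60930, minus strand) the window at chr1:22435801-22436000 took 94 bp of intron 7 and 106 bp of exon 8. ROS1 (AT2G36490, minus strand, called DML1 in RefSeq) held its window at chr2:15310601-15310800, in exons 9 and 10 and introns 8 and 9. The PMS1 (AT4G02460, minus strand) window at chr4:1078601-1078800 was coding sequence of exon 3 throughout. The RAD23C (AT3G02540, minus strand) window at chr3:534801-535000 held exon 4 with parts of introns 3 and 4. In PARP1 (AT2G31320, minus strand) the window at chr2:13356401-13356600 was coding sequence of exon 10 throughout.

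The other 2 positions were listed as promoter but did not lie at the start of the gene they were named for. The second PARP1 window, chr2:13353601-13353800, covered the last 53 bp of the final exon 19 of PARP1, the 75 bp beyond the gene and the end of LBD14 (AT2G31310), a LOB domain gene on the plus strand. Of its 4 CG sites, 3 lay in those 75 bp. The window listed for SMC5 (AT5G15920, plus strand) at chr5:5193801-5194000 lay 1592 bp before the gene and inside the neighbouring gene AT5G15910, in its exon 3 and introns 2 and 3. Member windows held 2 to 4 CG sites on each strand, against a median of 3 in all listed windows and of 4 in all genome windows with a CG. No member window was listed with a transposable element, and no CHG window lay within 2000 bp of a member. The authors found few CHG changes in the whole series. The shares over all windows were not computed, so nothing about the members can be read from these absences.

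The sequences of 6 windows follow, on the plus strand from 5′ to 3′ (RefSeq, TAIR10.1), with each CG in capitals. They are the 4 that were almost unmethylated in the listed groups other than S2γ30, the 1 that was almost unmethylated in S2γ30 (ROS1), and the window with the largest loss (PMS1). For PARP1 only the stretch between the genes is shown (chr2:13353673-13353747), and for SMC5 the part chr5:5193833-5194000, so that no untranslated exon is printed.
BRCA2B: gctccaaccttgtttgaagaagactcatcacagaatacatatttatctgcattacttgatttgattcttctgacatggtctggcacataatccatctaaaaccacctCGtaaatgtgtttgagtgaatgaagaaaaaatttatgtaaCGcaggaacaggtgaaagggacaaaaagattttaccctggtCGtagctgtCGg
SMC5: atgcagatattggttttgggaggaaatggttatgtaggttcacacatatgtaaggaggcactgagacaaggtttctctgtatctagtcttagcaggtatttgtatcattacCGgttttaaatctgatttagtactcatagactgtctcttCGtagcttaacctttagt
PRP19B: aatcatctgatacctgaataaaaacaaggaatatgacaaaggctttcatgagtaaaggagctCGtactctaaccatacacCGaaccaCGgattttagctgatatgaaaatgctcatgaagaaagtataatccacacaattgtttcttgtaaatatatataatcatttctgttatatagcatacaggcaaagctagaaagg
PARP1: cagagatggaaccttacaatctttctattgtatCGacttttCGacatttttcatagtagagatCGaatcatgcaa
ROS1: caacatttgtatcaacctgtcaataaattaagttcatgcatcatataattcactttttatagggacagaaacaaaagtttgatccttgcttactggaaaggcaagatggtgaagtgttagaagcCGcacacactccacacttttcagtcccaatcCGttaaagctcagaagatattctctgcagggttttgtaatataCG
PMS1: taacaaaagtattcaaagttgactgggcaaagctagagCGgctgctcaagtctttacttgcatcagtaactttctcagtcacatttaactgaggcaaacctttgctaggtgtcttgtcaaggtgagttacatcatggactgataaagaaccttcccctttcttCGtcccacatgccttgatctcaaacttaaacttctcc
The capitals mark the CG sites whose methylation the level of each window sums up, as far as the window is shown.

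**Figure D1:**
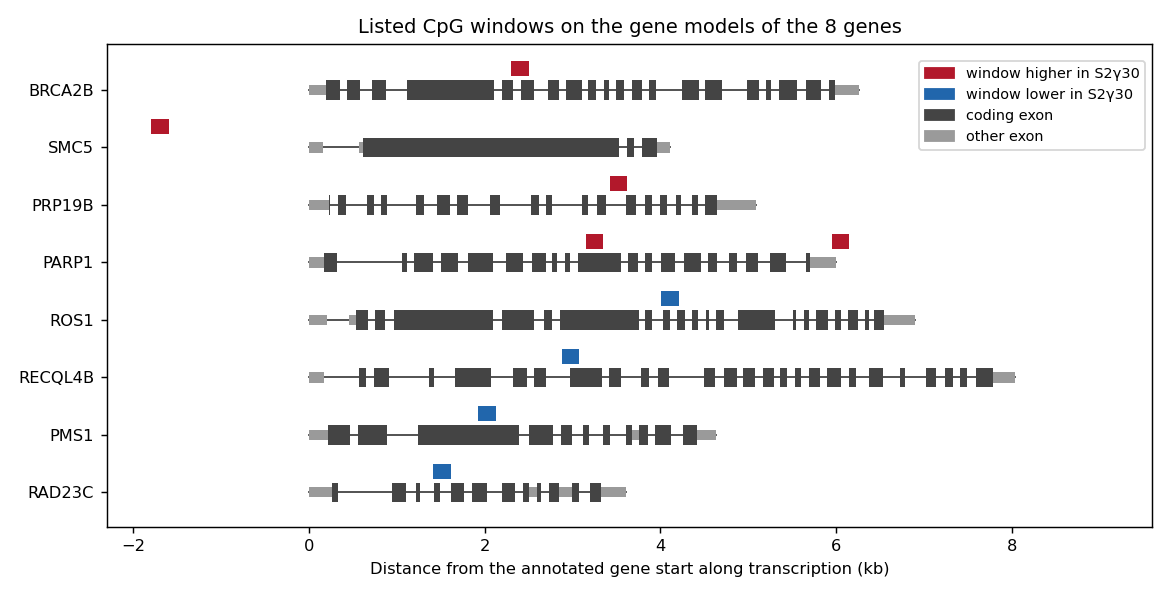
Gene models of the 8 genes drawn along transcription in kb from the annotated start, with coding exons (dark), other exons (light) and the listed CpG windows above them (red: higher in S2γ30, blue: lower in S2γ30). The SMC5 window stands 1592 bp before its gene, 1 PARP1 window straddles the 3′ end, and the other 7 windows lie inside the gene.

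All 18 entries compared S2γ30 with another group. So did most listed windows of any gene. The lists of S2γ30 against S1γ30, P0γ30 and S2γ0 held 1844, 272 and 771 of the 3273 CpG windows. S2γ30 had the highest level at 5 positions and the lowest at 4. This place follows largely from the rule for listing, and 3 of the positions had levels in 2 groups only. The member windows of S2γ30 were hypermethylated in 12 entries and hypomethylated in 6. Over all genes, 1033 windows were hypermethylated and 811 hypomethylated against S1γ30, 170 and 102 against P0γ30, and 458 and 313 against S2γ0. By the name in the list, hypermethylated windows belonged to BRCA2B, SMC5, PRP19B and PARP1, and hypomethylated windows to ROS1, RECQL4B, PMS1 and RAD23C. The 3 comparisons share the S2γ30 group, so their entries are not separate observations. Of the 18 lists of the series, 3 held a member window, 7 had windows but none of a member, and 8 were empty. Levels were thus known for P0γ30, S1γ30, S2γ30 and S2γ0 only, and the levels of the other 5 groups at these positions were not listed.

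**Figure D2:**
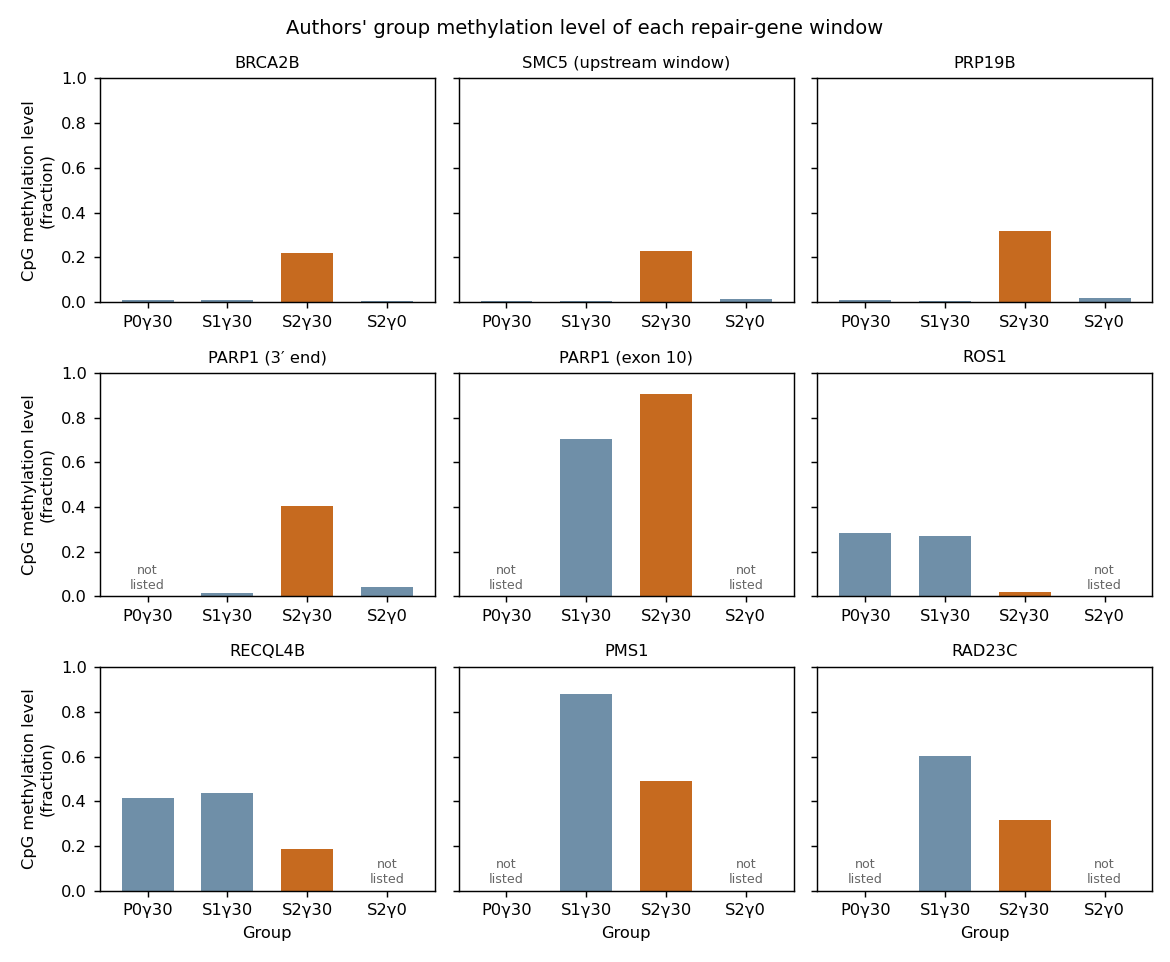
Methylation level (fraction of 0 to 1, 1 value per group with no error) at each of the 9 window positions in P0γ30, S1γ30, S2γ30 and S2γ0, with S2γ30 in orange. S2γ30 stands above the other listed groups in the first 5 panels and below them in the last 4. Each position was listed because S2γ30 differed from another group, so this place follows largely from the listing.

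BRCA2B is a homologue of the human BRCA2 protein, which loads the recombinase onto DNA at breaks. Its window had a level of 0.218 in S2γ30, against 0.00778 in P0γ30, 0.008 in S1γ30 and 0.00503 in S2γ0. The differences were 21.0, 21.0 and 21.3 percentage points over P0γ30, S1γ30 and S2γ0. The window was thus nearly free of methylation in the other 3 groups, which lay within 0.00298 of each other.

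SMC5 is a subunit of the SMC5/6 complex, a ring-shaped ATPase that aids recombination between sister chromatids. The window listed for it, within AT5G15910, had a level of 0.229 in S2γ30, against 0.00265 in P0γ30, 0.00544 in S1γ30 and 0.0119 in S2γ0. It exceeded P0γ30 by 22.6, S1γ30 by 22.4 and S2γ0 by 21.7 percentage points. Inside the SMC5 gene itself 2 other windows were listed, both in the coding sequence of exon 2 and both under the name of the neighbouring gene PAM1. They had the opposite direction, with a level of 0.355 in S2γ30 against 0.598 in P0γ30 at the first and of 0.637 in S2γ30 against 0.911 in S2γ0 at the second. The gene name in the list therefore stood for a gain of methylation, and the positions in the gene for a loss.

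PRP19B is a U-box ubiquitin ligase related to yeast Prp19, which works in splicing and, in yeast and mammals, also in the DNA damage response. Its intron 12 window reached 0.316 in S2γ30, against 0.00809 in P0γ30, 0.00315 in S1γ30 and 0.0159 in S2γ0. The gain was 30.8 percentage points over P0γ30, 31.3 over S1γ30 and 30.0 over S2γ0. Together with BRCA2B and SMC5 it was 1 of the 3 positions listed in all of these comparisons. In each of the 3, the listed groups other than S2γ30 stayed under 0.05.

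PARP1 is a poly(ADP-ribose) polymerase that binds strand breaks and marks nearby proteins for repair. At its 3′ end, the window shared with LBD14 had a level of 0.402 in S2γ30, against 0.0169 in S1γ30 and 0.0433 in S2γ0, and was not listed against P0γ30. These differences of 38.5 and 35.9 percentage points were the largest gains among the members. The exon 10 window had a level of 0.903 in S2γ30 against 0.703 in S1γ30. That gain of 20.1 percentage points was the smallest of the 18 and stood just inside the limit for listing, and 1029 of the 1033 windows hypermethylated in the same comparison had a larger one. By listed name, PARP1 was the only one of the 8 genes with more than 1 position, and its 2 windows were 2600 bp apart with no listed window between them in that comparison.

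ROS1 is a DNA glycosylase that excises 5-methylcytosine and so starts active demethylation, and its own transcription is known to depend on methylation near its promoter. Its window lay 4007 bp after the annotated start, 58.1% of the way along the gene. It had a level of 0.0215 in S2γ30, against 0.285 in P0γ30 and 0.272 in S1γ30, which are differences of -26.3 and -25.0 percentage points. The P0γ30 and S1γ30 levels differed by 0.013, and the window was not listed between them. Levels in S2γ0 were not listed, so the unexposed S2 plants cannot be placed beside these 3 groups.

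RECQL4B is a RecQ helicase, known in *Arabidopsis* for promoting crossovers in homologous recombination. At the border of its intron 7 and exon 8 the level was 0.187 in S2γ30, against 0.414 in P0γ30 and 0.435 in S1γ30. The differences were -22.7 and -24.9 percentage points. As at ROS1, the loss stood between S2γ30 and both earlier irradiated generations, while P0γ30 and S1γ30 lay within 0.0217 of each other.

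PMS1 is a MutL homologue of mismatch repair. In its exon 3 the level was 0.491 in S2γ30 and 0.879 in S1γ30, a difference of -38.8 percentage points and the largest loss among the members. Of the 811 windows hypomethylated in S2γ30 against S1γ30, 205 had a larger one. RAD23C belongs to the RAD23 family, which binds ubiquitin and takes part in nucleotide excision repair. Its window had a level of 0.316 in S2γ30 and 0.603 in S1γ30, a difference of -28.7 percentage points. Neither window was listed for S2γ30 against P0γ30 or S2γ0.

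The members were set beside all windows of each list. In S2γ30 compared with S1γ30, all 8 genes had a window, where 4.81% of the 27444 annotated protein-coding genes were named by one. In S2γ30 compared with P0γ30 the count was 5 of 8, beside 0.758% of genes, and in S2γ30 compared with S2γ0 it was 4 of 8, beside 2.12%. By listed name, 4 genes had a hypermethylated and 4 a hypomethylated window in S2γ30 against S1γ30 (2.82% and 2.18% of all genes). The counts were 3 and 2 against P0γ30 (0.488% and 0.288%), and 4 and 0 against S2γ0 (1.3% and 0.875%). SMC5 was counted here by a window outside the gene. The windows inside SMC5, listed under another name, were lower in S2γ30 than in P0γ30 or S2γ0. Because the genes were picked for being listed, nothing can be read from these counts. The members were also long, from 3607 bp to 8031 bp against a median of 2078 bp over protein-coding genes. Of the 4339 protein-coding genes of 3607 bp or more, 16% were overlapped by a window in S2γ30 compared with S1γ30, beside 5.29% of all such genes of any length.

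Median differences of the member windows were closer to 0 than those of the lists. In S2γ30 compared with S1γ30, the 5 hypermethylated member windows had a median difference of 0.224 on the fraction scale, against 0.2996 over all 1033 hypermethylated windows. The 4 hypomethylated ones had a median of -0.268, against -0.294 over 811. Against P0γ30 the 3 hypermethylated member windows had a median of 0.226, beside 0.366 over 170 windows, and against S2γ0 the 4 had a median of 0.259, beside 0.323 over 458. These medians rest on few windows. The same positions and the same S2γ30 levels recur in them, so they are not separate observations.

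A level under 0.05 in the group set against S2γ30 was frequent in hypermethylated windows of any gene. It was found in 4 of the 5 hypermethylated member windows of S2γ30 compared with S1γ30 and in 42.7% of all 1033. In S2γ30 compared with P0γ30 it was found in 3 of 3 member windows and 60% of 170, and in S2γ30 compared with S2γ0 in 4 of 4 and 33.6% of 458. The same member positions recur in these counts. Among hypomethylated windows, ROS1 was the only member with a level under 0.05 in S2γ30, a feature of 39.1% of the 811 windows lower in S2γ30 than in S1γ30.

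**Figure D3:**
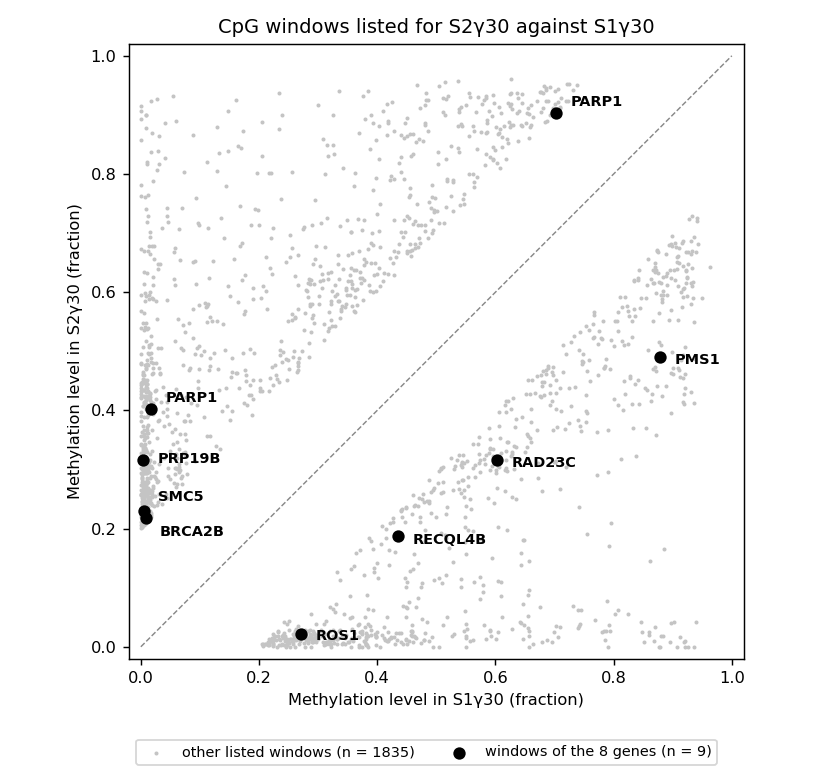
Levels in S2γ30 (vertical) and S1γ30 (horizontal), as fractions, of every CpG window listed between these groups: 1835 other windows in grey and the 9 windows of the 8 genes in black, with the dashed line at equal levels. BRCA2B, SMC5, PRP19B and 1 PARP1 window stand at the left edge near 0 in S1γ30, ROS1 at the bottom edge, and PMS1 at 0.491 against 0.879. The empty band along the line holds the differences too small to be listed.

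No member window adjoined another listed window. Apart from the PARP1 pair, the nearest window of the same list was 3800 bp to 558200 bp away. Near BRCA2B, windows named for AT5G01660 were listed 6600 and 7600 bp away, and they did not share a direction: the level was 0.0247 in S2γ30 against 0.432 in P0γ30 at the first, and 0.265 in S2γ30 against 0.00836 in S1γ30 at the second.

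For each position with levels in at least 3 groups, the windows of other genes with the most similar levels were sought by the root mean square difference over those groups. Among 155 windows with levels in all 4 groups, those closest to BRCA2B were AT1G79540 (0.00303), AT5G02720 (0.00487) and SMC5 (0.00709). AT1G79540 was also closest to SMC5 (0.00432). VIP4 was closest to PRP19B (0.00499), with a level of 0.317 in S2γ30 against 0.0112 in P0γ30, 0.0118 in S1γ30 and 0.0198 in S2γ0. Over 3 groups, AP3BA was closest to the PARP1 3′ end (0.00762, 460 candidates) and ITPK4 to ROS1 (0.0052, 302 candidates). For RECQL4B the nearest was CYP71B10 at 0.0565. Windows had levels in these groups only where they had been listed for a difference between groups. Very low levels in most groups leave little room to differ, unlike the middle levels of RECQL4B. The size of these values therefore does not set any member apart.

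Other genes of the same processes came from 8 lists. These covered DNA demethylation, DNA methylation, homologous recombination, end joining with PARP genes, excision repair, mismatch repair, damage signalling and the PRP19 complex. They held 62 genes beside the members. Of these, 9 were named by a CpG window in any list (14.5%), beside 5.94% of all protein-coding genes. Among the 62, 42 were at least as long as the shortest member, and a window overlapped 7 of them (16.7%), beside 19.1% of all protein-coding genes of that length. The share among the longer genes was thus near that of the genome, and neither share was tested.

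In homologous recombination, 3 of 17 other genes had a named window (17.6%), beside 5.94% of all protein-coding genes. A window overlapped 2 of the 17 (11.8%), beside 6.45% of all protein-coding genes. Groups this small show little, and these shares were not tested. SMC6B, which encodes the partner of SMC5 in the SMC5/6 complex, had a level of 0.240 in S2γ30 against 0.00551 in S1γ30, across exon 3 and introns 2 and 3. RAD51C, a recombination protein, was named for a window 2008 bp before the gene with 0.285 in S2γ30, against 0.604 in P0γ30, 0.672 in S1γ30 and 0.547 in S2γ0. RAD50, a subunit of the MRE11 complex that holds broken ends, was named for windows 8630 and 10830 bp before the gene, of which the nearer had 0.648 in S2γ30, against 0.291 in S1γ30 and 0.284 in S2γ0. A window in intron 13 of MRE11, listed under LHCB3, had 0.588 in S2γ30 and 0.190 in S1γ30.

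In mismatch repair, 4 of 6 other genes had a named window (66.7%), beside 5.94% of all protein-coding genes. A window overlapped 2 of the 6 (33.3%), beside 6.45% of all protein-coding genes. With so few genes these shares show little, and they were not tested. MSH6, a mismatch sensor, had 0.559 in S2γ30 and 0.261 in S1γ30 at 1464 bp before the gene. MSH3, a sensor of larger loops, had 0.0106 in S2γ30 and 0.224 in S1γ30 at 1854 bp beyond the gene. MLH3, a MutL homologue that acts in meiotic crossing over, had a window listed under AT4G35530 with 0.0675 in S2γ30, against 0.466 in S1γ30 and 0.387 in S2γ0.

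In the remaining lists, UVH1, the XPF endonuclease of excision repair, had 0.447 in S2γ30 and 0.687 in S2γ0. VIM1, which guides MET1 to half-methylated DNA, was listed as ORTH2 and was the only gene of the lists with a window between P0γ30 and S1γ30. Its level was 0.271 in S1γ30, against 0.00495 in P0γ30 and 0.00431 in S1γ0, and it was 0.0171 in S2γ30. ATM, the kinase that signals strand breaks, had windows listed under AT3G48195, with losses of methylation to 0.463 in S2γ30 against 0.897 in S1γ30 and to 0.572 in S2γ110 against 0.907 in S1γ110, and a gain elsewhere in the gene to 0.5 in S2γ30 against 0.259 in S1γ30. None of the 9 other DNA demethylation genes beside ROS1 was named by a window. The same held for the 6 other genes of the list of end joining and PARP genes, to which PARP1 belongs. With 5.94% of all protein-coding genes named, groups this small show little. ROS1 and PARP1 were picked for having a window, so they are not set apart by this.

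**Figure D4:**
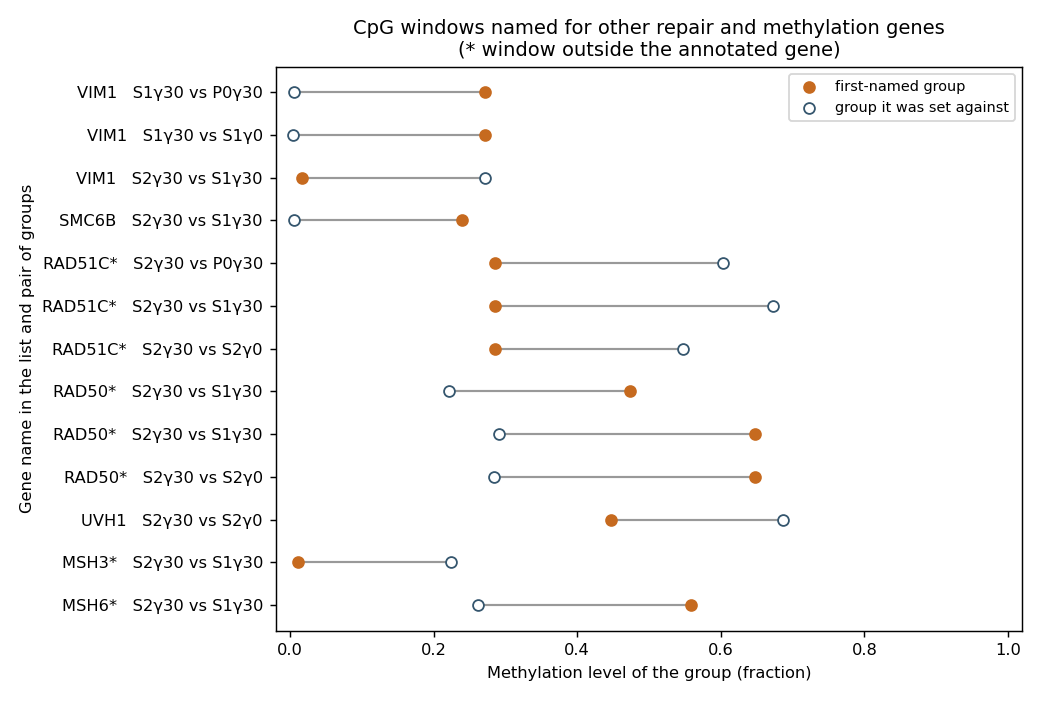
Levels, as fractions, of 13 list entries named for 7 other repair and methylation genes, with the first-named group of each pair filled and the group it was set against open, joined by a line. An asterisk marks windows outside the annotated gene, and the RAD51C entry of 0.285 in S2γ30 against 0.672 in S1γ30 has the longest line.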

How the data were processed

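Whole genome bisulfite sequencing was run on 5 samples of each of 9 groups. The authors mapped the reads to TAIR10 with CLC Genomics Workbench, called methylation with a site coverage of at least 5 in at least 3 samples, and deposited 1 level per group for each 200 bp window as a fraction (R 3.5.0 and bedtools, per the submitters' processing notes). The 18 tables analysed here hold neither coverage nor levels per sample, so the depth behind a level is unknown and no interval or test was computed. The tables also hold the authors' own p-values, adjusted p-values, methylation differences and status, which were not used. Differences were computed from the 2 level columns. Levels listed in several tables were equal (722 window and group pairs).

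Windows were matched to genes by the listed name or locus and counted once per comparison. Coordinates are those of the authors; all 2331 positions held a CG in the RefSeq TAIR10.1 sequence, and 835 of 838 gene-body windows overlapped the gene they named, so RefSeq was used for genes and sequences. Names matched an annotated gene within 50000 bp for 87.0% of windows, so shares of named genes are low estimates. The 8 genes and the pathway lists were chosen with earlier results of these data known. The genes named are the members, every list gene with a window, genes lying under a member window and up to 3 genes with the most similar levels. Of 78 list genes, 9 whose symbol RefSeq does not carry at that locus were left out, PRP19B among them, which was kept as a member only. Some genes of the lists are not reported here by name, though they are in the counts. The assignment of bases to exons and introns was checked on a made-up gene with a known answer. Python 3.11.15 with NumPy 2.4.6 and pandas 2.3.3 was used, with Matplotlib 3.10.9 for figures.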

Additional observations from a re-analysis of the deposited data

How the results depend on the processing

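The count of member windows was 18 by listed name, 17 where the window had to overlap the annotated gene and 20 with 2000 bp before the gene added. These settings gave 9 and 12 hypermethylated windows, against 12 by name, and 8 hypomethylated windows under both, against 6 by name, because both count the 2 windows inside SMC5 that were listed under another name. The overlap setting also drops the window before SMC5, which the setting with 2000 bp added keeps. With a difference of at least 30 percentage points, 6 windows remained, 5 of them hypermethylated and 1 hypomethylated, in 3 members (PARP1, PRP19B and PMS1), and 5 genes of the pathway lists had a window, against 16. Counted once per position there were 9 windows, 5 of them hypermethylated and 4 hypomethylated. The pathway genes numbered 14 by overlap. Group levels were equal in every table, so averaging them or not changed nothing. No paired analysis was possible because the tables hold group levels and no sample values. For the same reason no replicate was left out and no coverage minimum was tried. With 2 to 4 CG sites in a member window, each level rests on few cytosines.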
